A study of Camponotus floridanus with 24 samples.

Results

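The solitary abundant miRNAs of Camponotus floridanus larvae were 33 rows of the deposited small RNA counts, out of 918 rows in all and 336 that had enough reads to be tested. They were chosen by measured values: a row of the first block of each table, with 10 or more reads in 12 or more of 24 libraries and a mean of at least 500 RPM (reads per 1000000 counted reads) over all 24. The other conditions concerned position and sharing of reads: no other tested row of that block lay on the same scaffold within 5 running numbers, and no other had identical counts in every library. Abundance was therefore set by the choice of members and is described here without a test, whereas larval length was not used in it. The 24 libraries came from whole bodies of single female terminal larvae, the last stage before pupation, of the Florida carpenter ant, whose workers differ widely in size. The labels give each larva a length between 4648.07 and 7598.06 µm, and name no treatment, genotype, colony or age. The larvae were compared along length, and as the 8 smallest (4648.07 to 5502.35 µm), the middle 8 (5690.32 to 6689.42 µm) and the 8 largest (6797.79 to 7598.06 µm).

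A miRNA is cut from a hairpin-shaped transcript into a short duplex, and usually one strand is kept in an Argonaute protein, where it pairs with messenger RNAs and lowers their output. The other strand is in most cases degraded, so the arms of a hairpin tend to differ widely in abundance. Hairpins that lie close together are often transcribed as a single unit, while a hairpin that stands alone can have its own promoter or sit in the intron of a host gene. In insects, miRNAs are known to take part in growth, moulting and metamorphosis. A hairpin is named only by scaffold and running number, and 0 of the 459 names were found in RefSeq's gene table for this ant, so no member is paired with a miRNA family and no sequence is shown. Members are called by their rank in mean RPM among the 336 tested rows, and identifiers are given for 2 that rose and 2 that fell with length.

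Total counts per library ran from 881734 to 6128791. By the widest gap in the levels of any tested row, 9 libraries separated from the other 15, a division found in the counts and not given by the labels. The 9 had a median of 1483657 reads and the 15 a median of 4213472 reads. The 9 held 2 of the smallest, 5 of the middle and 2 of the largest larvae, so results are also given for each set alone or with the set as a model term. Levels are CPM, counts scaled to 1000000 per library after TMM adjustment, and so relative, and in whole bodies fewer cells that make a miRNA and less of it per cell cannot be told apart.

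The 33 members held 56.9% ± 2.25 of all counted reads (SD, n = 24), between 51.0% and 61.3% in a single larva. The total is the sum over all rows, so a read given to several rows would be counted in each. The most abundant member held 12.6% ± 2.16 of the reads, the first 3 held 33.6% ± 2.82 and the first 5 held 40.5% ± 2.52. The other 28 thus shared less than these 5, and the least abundant of them, ranked 87, had a mean of 582 RPM. The members next to the threshold on its inner side had 604 and 582 RPM, and the most abundant solitary rows outside it had 427 and 322 RPM. By size class, the share of the whole group was 57.1% ± 1.47 in the smallest, 55.7% ± 2.56 in the middle and 58.0% ± 2.21 in the largest larvae (SD, n = 8 each).

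The word solitary describes the numbering and not the reads of 4 members. The members ranked 60, 61 and 63 differed from each other, and from 3 further tested rows, by at most 1.27% in any library, and 1 of these 3 rows was of the second block. The member ranked 87 differed from a row on its own scaffold by at most 1.13%. Reads of these 4 cannot be assigned to a single hairpin, and the members ranked 60, 61 and 63 count in effect as a single measurement. The other 29 members had no tested row within 5% of their counts in every library. The 33 hairpins lay on 31 scaffolds, 2 of which carried a pair of members far apart in the numbering: ranks 7 and 72 on the one, and ranks 17 and 71 on the other.

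**Figure D1:**
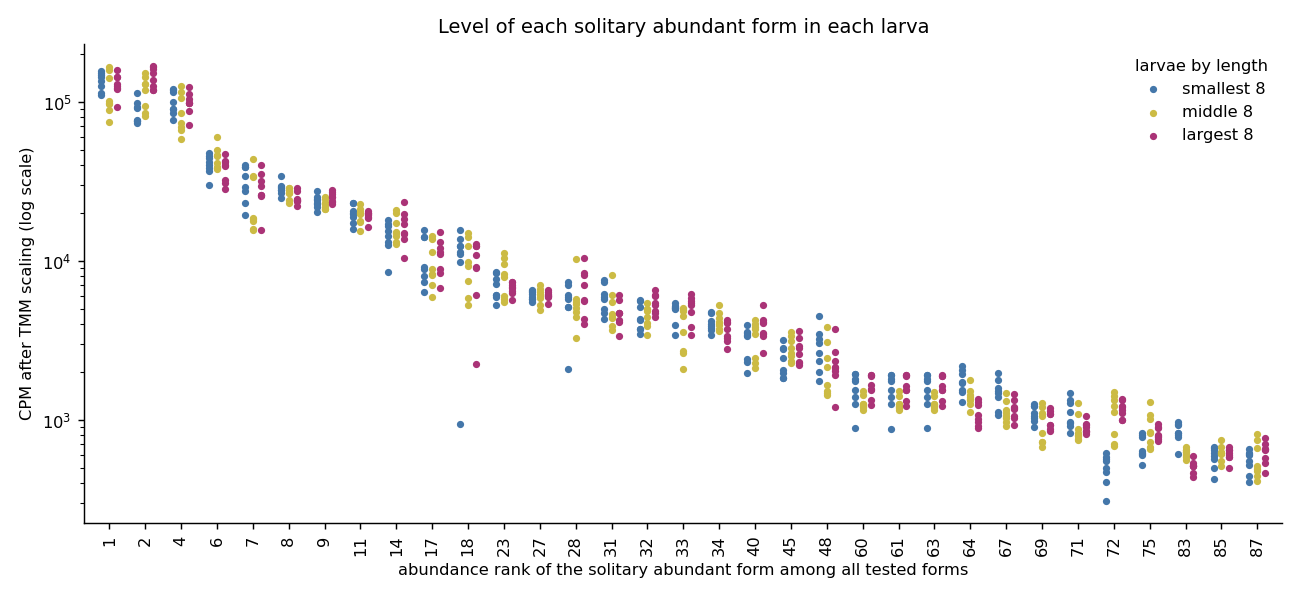
Level of each of the 33 solitary abundant forms (x axis, abundance rank among all 336 tested forms) in each of the 24 larvae (points, coloured by size class) in CPM after TMM scaling on a log axis. Most members span about the median of 2.18-fold between larvae, while the member ranked 18 drops to 948 and 2249 CPM in 2 larvae.

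Variation between larvae differed strongly among the members. The coefficient of variation (SD over mean, 24 larvae) ran from 8.03% to 39.7%, with a median of 20.6%, beside a median of 28.7% over all 336 tested rows. The members were chosen for abundance, and the 336 include scarcer rows with more counting error, so these medians do not compare like rows. The lowest count of any member in any library was 458 reads, for which counting error alone is 4.67%. The steadiest members were those ranked 27 and 9, at 8.03% and 8.58%. The member ranked 27 stayed between its lowest and highest level within 1.45-fold, and the member ranked 9 within 1.38-fold. The latter was among the most abundant miRNAs of the larvae, with 20304 or more reads in every library. Those ranked 8, 11 and 85 also varied by less than 12%.

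The most uneven members were those ranked 72, 18 and 48, at 39.7%, 37.8% and 34.9%. The member ranked 18 had a lowest level of 948 CPM, a median of 11005 and a highest of 15501, a 16.3-fold range. It was the larvae of 5054.15 and 7114.6 µm that were low, at 948 and 2249 CPM, with the next lowest larva at 5270 CPM. Both low larvae were in the set of 15, one belonged to the smallest and the other to the largest class, and the slope of this member on length was -0.10 log2 units per 1000 µm, the unit of all slopes here (SE 0.17, adjusted p = 0.785, edgeR). That hairpin's second-listed form was also at its lowest in them, with 3 reads and 1 read against 4 to 85 reads in the other larvae.

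The set of libraries moved with several abundant members. The median in the 9 was 0.543 of that in the 15 for rank 7, 0.684 for rank 1 and 0.698 for rank 4, while rank 2 stood at 1.33 and rank 72 at 1.71. The member ranked 33 was the only one of the 33 in which the sets did not overlap, with 2094 to 4487 CPM in the 9 and 4748 to 6140 CPM in the 15. Over all tested rows 1.49% were separated in this way. The sets were drawn from the gap in a single tested row, so this share is not independent of the division. For the members ranked 31, 64 and 83 the medians of the sets differed little, with ratios of 0.999, 0.998 and 0.977. What distinguishes the sets was not tested.

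The 5 most abundant members were those ranked 1, 2, 4, 6 and 7, and of these only rank 2 changed with length. The member ranked 1 had 109683, 138821 and 155631 CPM as the lowest, median and highest values of the smallest class, and 92747, 126683 and 157452 CPM in the largest. These classes overlapped widely, and its slope was -0.03 log2 units per 1000 µm (SE 0.066, adjusted p = 0.802, edgeR). Rank 4 went from a median of 94816 CPM in the smallest class to 98195 CPM in the largest, with a slope of 0.00 (SE 0.067, adjusted p = 0.967), a sign that turned negative in 9 alternative fits and in 15 of the 24 that left out a larva, none of them past the threshold. Rank 6 had medians of 40705 and 39562 CPM in the same classes and a slope of -0.04 (SE 0.059, adjusted p = 0.738). Rank 7 had medians of 31563 and 27792 CPM and a slope of -0.06 (SE 0.097, adjusted p = 0.745). In the 9 libraries alone rank 7 had a slope of -0.44 (adjusted p = 0.0384, edgeR) and in the 15 a slope of -0.02 (adjusted p = 0.934); the difference between the sets was not tested. A slope that missed the threshold does not show that a level was the same along length.

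The member ranked 2, hairpin NW_020229470.1_26148, rose with length. Its lowest, median and highest levels were 73536, 84252 and 113441 CPM in the smallest class, 81720, 123753 and 150358 CPM in the middle and 118041, 143580 and 168171 CPM in the largest. Every one of the 8 largest larvae lay above every one of the 8 smallest, and the middle class overlapped both. The middle class divided by library set. Its 3 larvae of the 15 had 81720 to 94269 CPM and its 5 of the 9 had 118528 to 150358 CPM. In the 15, those 3 lay within the 73536 to 113441 CPM of the smallest larvae. In the 9, the 2 smallest larvae had 76746 and 92905 CPM, below the 5 middle larvae. The slope was 0.31 (SE 0.060, adjusted p = 0.000427, edgeR), and the largest class was 1.64-fold above the smallest (log2 difference 0.71, SE 0.13, adjusted p = 0.000375). The slope was 0.33 in the 9 libraries (adjusted p = 0.0243, edgeR) and 0.30 in the 15 (adjusted p = 0.00270). With the library set and log10 of the total reads together in the model, the slope was 0.31 (adjusted p = 0.000927).

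The order of the leading pair differed between the classes. In each of the 8 smallest larvae rank 2 was below rank 1, at 0.483 to 0.844 of its level. It was above rank 1 in 5 of the 8 middle and 6 of the 8 largest larvae, with ratios up to 1.59 and 1.47, though in the larva of 7114.6 µm the pair was equal within counting error (527055 and 527461 reads). This ratio does not depend on the scaling of the libraries, but it moved with the library set. Within the 15 the ratio was 0.483 to 0.844 in 6 smallest, 0.518 to 0.602 in 3 middle and 0.756 to 1.40 in 6 largest larvae. Within the 9 it was 0.611 and 0.819 in 2 smallest, 1.29 to 1.59 in 5 middle and 1.17 and 1.47 in 2 largest larvae. Across all tested rows, rank 1 was the most abundant form in 12 libraries, rank 2 in 11 and a form outside the group, ranked 3, in 1.

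**Figure D2:**
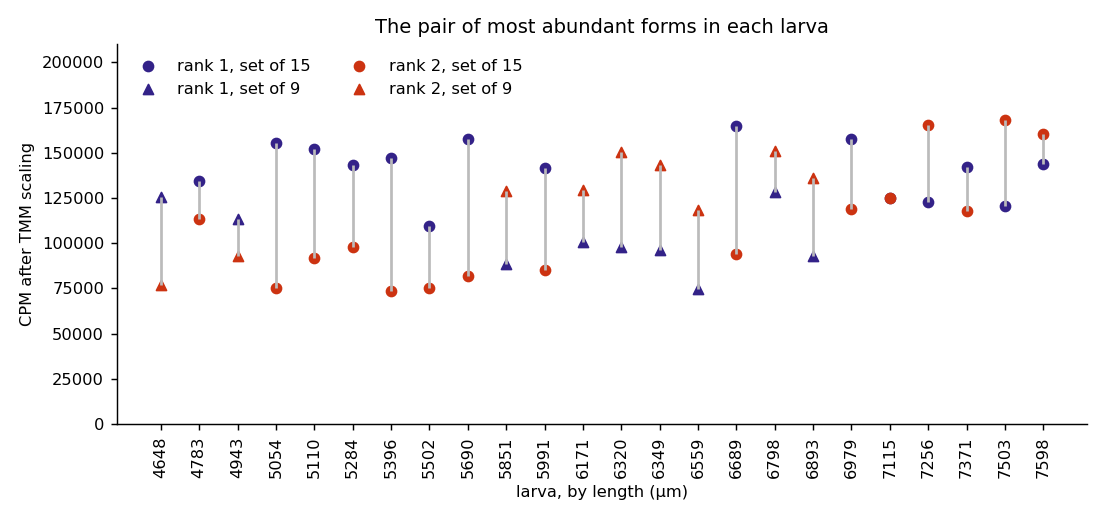
Levels of the forms ranked 1 (blue) and 2 (red) in CPM after TMM scaling (y axis) in each larva, ordered by length in µm (x axis); triangles are the 9 and circles the 15 libraries of the sets found in the counts. Rank 2 lies below rank 1 in all 8 smallest larvae and above it in 6 of the 8 largest.

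Over the 33 members, 2 rose and 4 fell with length by edgeR's quasi-likelihood test, with Benjamini-Hochberg adjustment over all 336 rows at 0.05. Over all tested rows 11.6% rose and 8.93% fell, together 20.5%, so the members' 18.2% was near the background. Slopes were positive in 17 members and negative in 16, with a median of 0.00 beside 0.02 over all tested rows. The median size of a slope, sign aside, was 0.08 in the members and 0.12 over all rows. The median standard error was 0.065 in the members and 0.087 over all rows. Both medians over all rows include scarcer rows, which carry more counting error than the members. At an unadjusted p under 0.05 there were 12 of the 33, or 36.4%, beside 32.1% of all rows. Among the other first-block rows, 18 of 92 solitary scarce, 14 of 64 neighbouring and 10 of 44 identical rows changed, and no test of a difference between these groups was made. With no scaling factor 2 members rose and 6 fell, and over all rows 24 rose and 41 fell, against 39 and 30 with TMM.

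**Figure D3:**
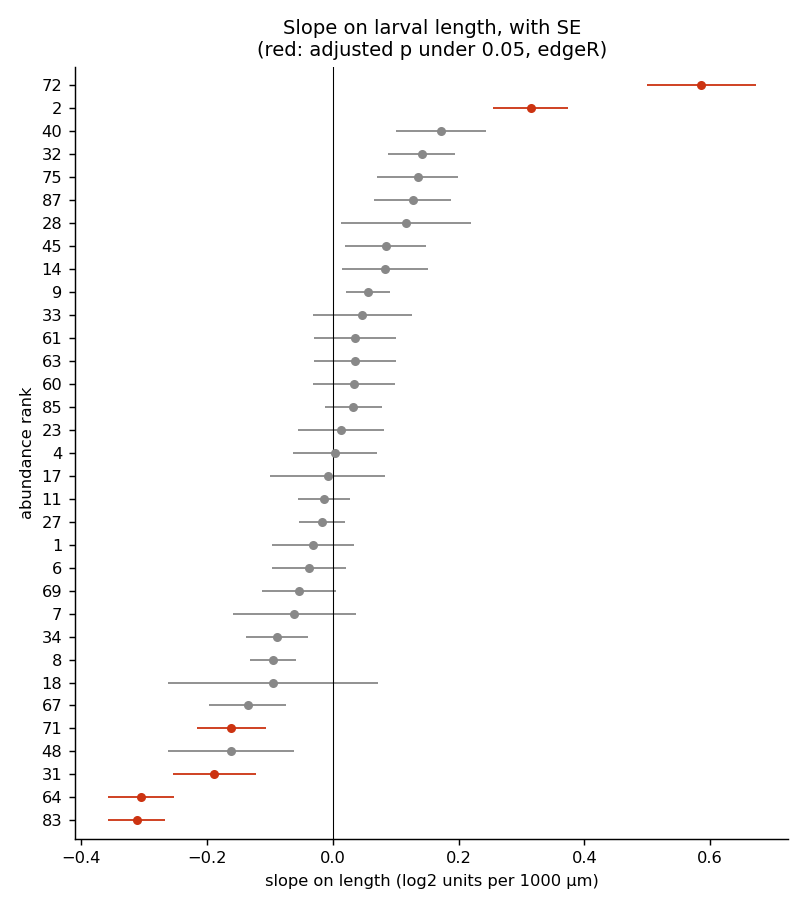
Slope on larval length in log2 units per 1000 µm (x axis; bars, SE) for each of the 33 members (y axis, abundance rank), with those past an adjusted p of 0.05 by edgeR in red. The 6 red members are ranks 72 and 2 on the right and 71, 31, 64 and 83 on the left.

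The second member that rose was ranked 72, hairpin NW_020229838.1_37076, and its class median changed mainly between the smallest and the middle class. Its lowest, median and highest levels were 308, 525 and 617 CPM in the smallest class, 680, 1172 and 1490 CPM in the middle and 998, 1181 and 1361 CPM in the largest. All 8 middle and all 8 largest larvae lay above all 8 smallest, and the middle and largest classes overlapped. In the 9 libraries, the 2 smallest larvae had 500 and 550 CPM and the 5 middle larvae 820 to 1490 CPM. In the 15, middle larvae of 5690.32 and 5991.09 µm had 680 and 704 CPM, and that of 6689.42 µm was higher. The step from the smallest to the middle class was not tested. The slope was 0.59 (SE 0.087, adjusted p = 3.18e-05, edgeR), and the largest class was 2.34-fold above the smallest (log2 difference 1.23, SE 0.16, adjusted p = 7.68e-06). The slope was 0.64 in the 9 libraries (adjusted p = 0.00794) and 0.57 in the 15 (adjusted p = 0.000362). With set and log10 reads in the model it was 0.62 (adjusted p = 3.27e-06).

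Of the 4 that fell, the member ranked 83, hairpin NW_020229436.1_23921, had the smallest adjusted p. Its lowest, median and highest levels were 611, 831 and 968 CPM in the smallest class, 559, 628 and 673 CPM in the middle and 435, 515 and 590 CPM in the largest. Every largest larva lay below every smallest, and the low value of the smallest class, 611 CPM, was that of the shortest larva; the other 7 were at 782 CPM or more, above every middle larva. The slope was -0.31 (SE 0.045, adjusted p = 2.77e-05, edgeR), and the largest class stood at 0.611 of the smallest (log2 difference -0.71, SE 0.091, adjusted p = 7.68e-06). In the 9 libraries alone the slope was -0.29 (adjusted p = 0.0827), in the 15 it was -0.35 (adjusted p = 0.000181), and with set and log10 reads in the model -0.34 (adjusted p = 4.48e-05).

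The member ranked 64, hairpin NW_020229647.1_32024, fell by a similar amount but with overlap between the classes. Its lowest, median and highest levels were 1287, 1715 and 2191 CPM in the smallest class, 1117, 1372 and 1792 CPM in the middle and 892, 1040 and 1354 CPM in the largest. The slope was -0.30 (SE 0.053, adjusted p = 0.000189, edgeR), and the largest class stood at 0.627 of the smallest (log2 difference -0.67, SE 0.12, adjusted p = 0.000297). The slope was -0.44 in the 9 (adjusted p = 0.00794) and -0.29 in the 15 (adjusted p = 0.00840). With set and log10 reads it was -0.27 (adjusted p = 0.00234).

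The falls of the members ranked 31 and 71 were smaller and had adjusted p-values close to the threshold. Rank 31 had a median of 5821 CPM in the smallest, 4540 CPM in the middle and 4706 CPM in the largest class, with wide overlap between 4279 to 7533, 3645 to 8126 and 3382 to 6081 CPM. Its slope was -0.19 (SE 0.065, adjusted p = 0.0415, edgeR), and the class contrast did not pass (log2 difference -0.31, SE 0.15, adjusted p = 0.185). Rank 71 had medians of 1042, 814 and 876 CPM and ranges of 827 to 1483, 744 to 1282 and 820 to 1060 CPM in the same order. Its slope was -0.16 (SE 0.055, adjusted p = 0.0392), and its class contrast did not pass either (log2 difference -0.30, SE 0.13, adjusted p = 0.105). In the 15 libraries the slope of rank 31 was -0.19 (adjusted p = 0.137, edgeR) and in the 9 it was -0.25 (adjusted p = 0.119). For rank 71 it was -0.11 in the 15 (adjusted p = 0.273) and -0.40 in the 9 (adjusted p = 0.0157), and the difference between the sets was not tested. Each slope call missed the threshold when any one of 5 larvae was removed, while over all 24 removals the slope kept its sign, at -0.25 to -0.16 for rank 31 and -0.21 to -0.12 for rank 71. For rank 31 these were the larvae of 6892.55 µm (adjusted p = 0.0561), 4942.55 µm (0.0666), 4648.07 µm (0.116), 7598.06 µm (0.103) and 5284.36 µm (0.0588). For rank 71 they were those of 6892.55 µm (adjusted p = 0.0559), 4942.55 µm (0.0666), 4648.07 µm (0.136), 6979.4 µm (0.0630) and 6797.79 µm (0.0511). With set and log10 reads in the model the slope was -0.14 for both (adjusted p = 0.242 for rank 31 and 0.149 for rank 71). Removing any one of the 24 larvae left the calls of ranks 2, 64, 72 and 83 in place, in both tests.

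**Figure D4:**
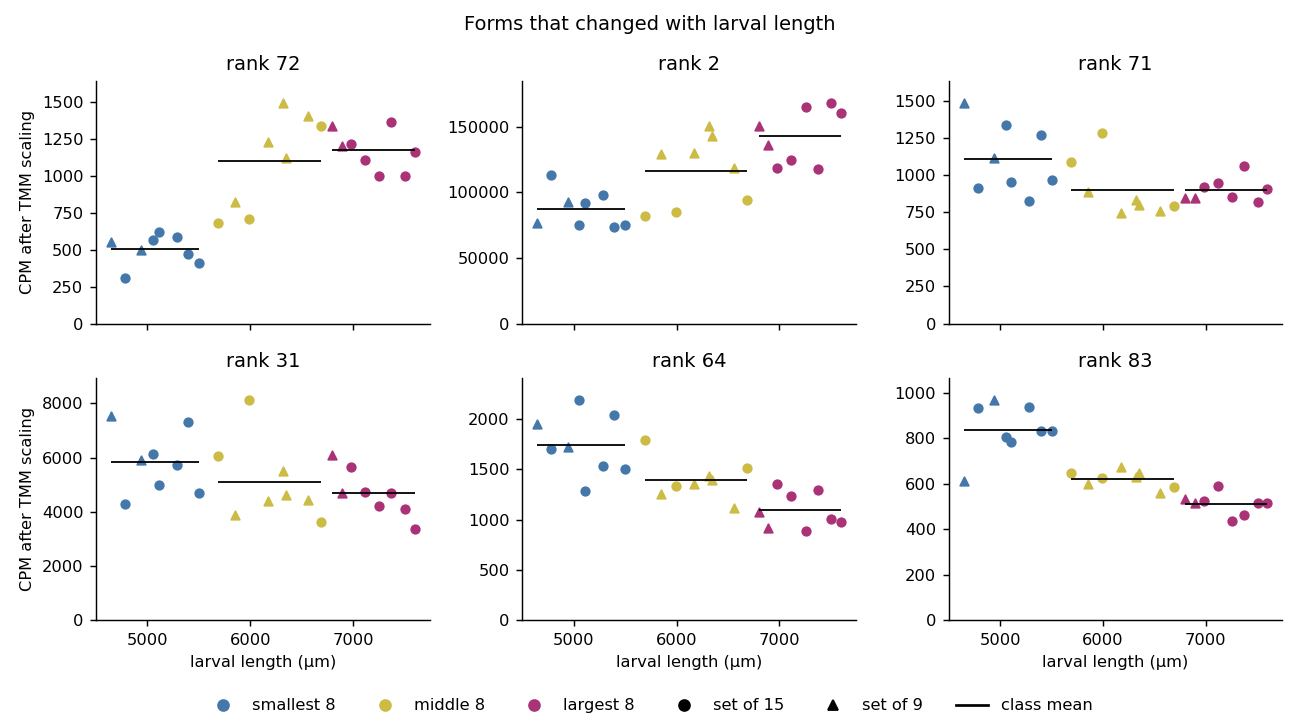
Level in CPM after TMM scaling (y axis, from 0) against larval length in µm (x axis) for the 6 members that changed with length; points are larvae coloured by size class, triangles the 9 and circles the 15 libraries of the sets, and black lines the class means. The class mean of rank 72 steps up between the smallest and middle class, while those of ranks 64 and 83 fall across all 3 classes.

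When the largest larvae were set against the smallest, 2 members were higher (ranks 2 and 72) and 2 were lower (ranks 64 and 83), beside 9.82% and 7.14% of all rows. This contrast uses the same larvae as the slope and is no separate evidence. Levels of the end classes did not overlap in 3 members: in ranks 2 and 72 the largest class was higher, which held for 2.38% of all rows, and in rank 83 it was lower, which held for 1.79%. The class means of 6 members rose in order and those of 7 fell in order. The middle class was highest in 6 and lowest in 14. Ranks 60, 61 and 63, whose counts were nearly the same, each enter the 14. These patterns were not counted over all tested rows, so they are not shown to be particular to the members. Of the set of 9, 5 libraries were of middle larvae.

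With the library set as a covariate, 4 members rose and 6 fell, beside 13.7% and 12.2% of all rows. All 6 calls above were kept, and ranks 32 and 75 joined those that rose (adjusted p = 0.0456 and 0.0414) and ranks 8 and 67 those that fell (adjusted p = 0.0399 and 0.00660, edgeR). Without a covariate, rank 8 had a slope of -0.095 (SE 0.036, adjusted p = 0.0619, edgeR) and rank 67 one of -0.14 (SE 0.061, adjusted p = 0.134). When single larvae were left out, rank 8 passed in 12 of 24 slope fits and 13 of 24 class fits. Rank 67 passed in 1 and 14 of them. The scaling factors were computed anew in each of these fits. Leaving out the middle larva of 5690.32, 6320.12 or 6689.42 µm moved the class difference of rank 8 from -0.21 to -0.28, though these larvae are in neither end class. A pass therefore need not reflect the level in the larva left out. With log10 of the total reads added to the set, 2 rose and 3 fell, beside 8.63% and 8.04% of all rows, namely ranks 2 and 72 and ranks 64, 67 and 83. Slopes had the same sign in the 9 and in the 15 libraries in 24 of the 33 members. Agreement of sign was not counted over all tested rows. Ranks 60, 61 and 63, whose counts were nearly the same, are each among the members whose sign differed. Summed, the rising pair took up 6.90% to 11.4% of reads among the smallest larvae (median 8.96%), 8.04% to 14.7% among the middle larvae (median 13.3%) and 10.6% to 16.5% among the largest (median 14.3%). The 4 falling members held 0.971% ± 0.146, 0.811% ± 0.165 and 0.693% ± 0.0801 in the same order (SD, n = 8 each). These sums follow members called on the same libraries and are no further support. Each is mostly the level of its most abundant member. Rank 2 had a mean of 115358 RPM beside 918 RPM for rank 72. Rank 31 had a mean of 5206 RPM beside 1413, 970 and 660 RPM for ranks 64, 71 and 83.

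Each of the 33 hairpins also has a second-listed row, and in 23 of them that row was tested. The second-listed form made up more than 10% of the hairpin's reads in 8 hairpins and over 1% in 15. It held most of the hairpin's reads in those ranked 17 and 28, at 60.4% ± 5.46 and 57.0% ± 5.62 (SD, n = 24), and exceeded the first-listed form in 23 and 22 of the 24 larvae. For the most abundant member it was 0.120% ± 0.0391, and for those ranked 31 and 63 no read of it was counted in any library. In the hairpin ranked 48 the share ran from 12.3% to 48.4%, the widest range in percentage points among the 33.

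Of the 23 tested second-listed forms, 2 rose and 3 fell with length, beside 10 and 11 of all 103 tested second-listed rows (20.4% together), so the share was near that background. Among the 6 members that changed, 5 had a tested second-listed form. In 4 of the 5 it changed in the same direction: slopes were 0.21 (SE 0.069, adjusted p = 0.0367) for the hairpin ranked 2, 0.69 (SE 0.18, adjusted p = 0.0064) for rank 72, -0.28 (SE 0.075, adjusted p = 0.0085) for rank 64 and -0.52 (SE 0.13, adjusted p = 0.0051) for rank 83, by edgeR. For rank 71 it was -0.08 (SE 0.048, adjusted p = 0.254). The second-listed form of rank 83 was scarce, with a mean of 15.6 RPM and as few as 6 reads in a library. First- and second-listed forms share their libraries and are not separate evidence. Of the other 18 tested second-listed forms 1 passed, that of the hairpin ranked 34, which fell with a slope of -0.25 (SE 0.079, adjusted p = 0.0322), while the slope was -0.09 for the first-listed form (SE 0.050, adjusted p = 0.241); the difference between them was not tested.

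**Figure D5:**
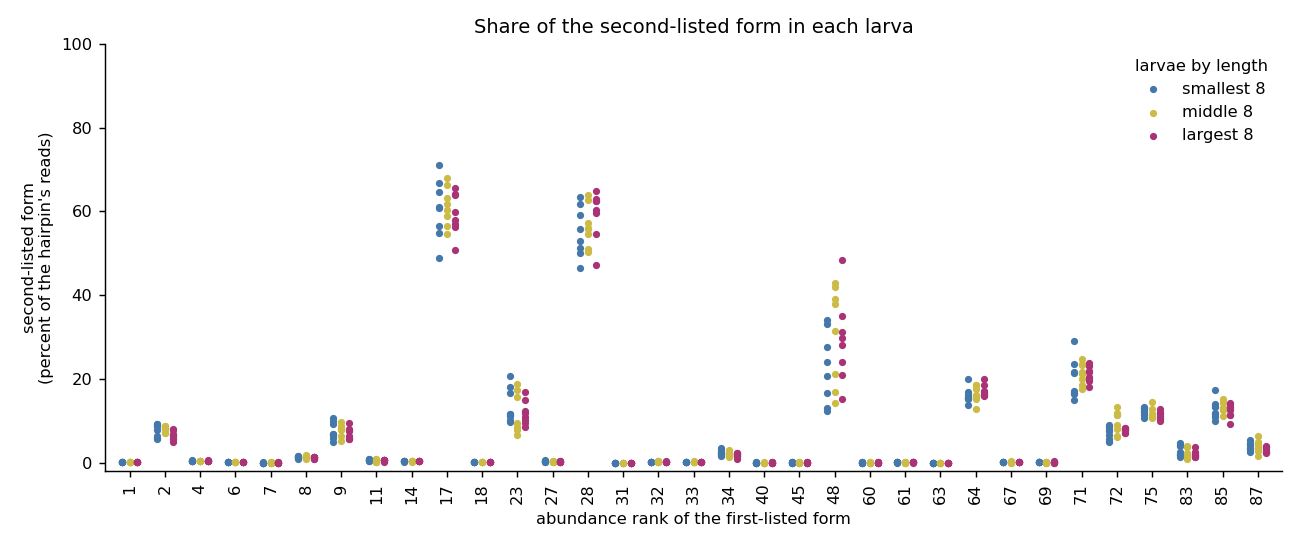
Share of the second-listed form in the reads of each hairpin, in percent (y axis), for the 33 hairpins by rank of the first-listed form (x axis); points are the 24 larvae, coloured by size class. In the hairpins ranked 17 and 28 the second-listed form averages 60.4% and 57.0%, and 6 other hairpins lie above 10%.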

How the data were processed

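Small RNA from 24 whole larvae was sequenced as single-end Illumina reads from TruSeq small RNA libraries, per the labels' protocols. The submitters' processing notes name bcl2fastq 2.20 and Trim Galore 0.6.7; which aligner, miRNA caller and build were used is not stated in what was read here. Each deposited table holds, per the file headers, raw read counts and the authors' RPM; the deposited RPM equalled count over total to within 0.0050. Each table has 924 rows, 463 of them in a first block; the headers name no arm. Names repeated within a block (3) were collapsed to the maximum per library.

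Rows with 10 or more reads in 12 or more libraries were tested on counts with edgeR 4.0.16 (TMM, robust quasi-likelihood F tests, no covariate; R 4.3.3), adjusted over all 336 rows. DESeq2 1.42.0 and limma 3.58.1 (voom) were alternatives. TMM factors ran from 0.878 to 1.12. The fits were checked on simulated counts. Depth gave a floor (3 reads) of 0.489 to 3.40 CPM, which covers counting error only; reads carry no molecular identifiers. Full values are given for members past an adjusted p of 0.05 in either test and for the 5 most abundant; other members were named after their values were seen. The members and lists were chosen with earlier results of these data known. The library sets come from the counts, not the labels.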

Additional observations from a re-analysis of the deposited data

Results flagged for a closer look

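In 99 sets of 8 larvae (33 members in 3 size classes), 4 held a larva far from the other 7, where chance picks out about 1 in 20. That number is not above the chance rate. The 99 count ranks 60, 61 and 63 separately, although their reads were nearly the same. In the smallest class the larva of 5054.15 µm had 948 CPM of the member ranked 18 against 9769 to 15501 CPM in the others, and 2079 CPM of the member ranked 28 against 5101 to 7350 CPM. In the middle class the larva of 6559.34 µm had 10245 CPM of the member ranked 28 against 3289 to 5789 CPM. In the largest class the larva of 6892.55 µm had 16252 CPM of the member ranked 11 against 18563 to 20505 CPM. The larva of 5054.15 µm was in the set of 15, and the other 2 were in the set of 9. None of these 3 members passed in either test of length.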

How the results depend on the processing

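Under every alternative run on all 24 libraries, ranks 2, 64, 72 and 83 were called along length and between classes with the same sign; of the fits within a set, rank 83 missed in the 9 (slope -0.29, adjusted p = 0.0827). The 2 rising members became 4 with DESeq2's test, 4 with the library set as a covariate, 4 among the 38 members at 250 RPM and 1 among the 27 at 1000 RPM, and 2 to 4 without single larvae. Over all rows the 39 rising became 46 with DESeq2's test and 46 with the library set as a covariate. The 4 falling became 2 without a count filter, 2 at 1000 RPM and 2 with a neighbour distance of 20 (26 members), and 2 to 6 without single larvae. The falling members were 6 with no scaling factor and 6 with the library set as a covariate. Over all rows the 30 falling were 24 without a count filter, 41 with no scaling factor and 41 with the set. Rank 8 also fell past the threshold with no scaling factor (adjusted p = 0.00822, edgeR), DESeq2's test (0.00519) and limma-voom (0.0390). It passed too with DESeq2's size factors and 10 reads in all 24 libraries, and missed with upper quartile scaling and without a count filter. The 2 higher in the largest class became 4 at 250 RPM and 1 at 1000 RPM, and stayed at 2 without single larvae. The 2 lower became 4 with DESeq2's size factors, 5 with no scaling factor, 4 with DESeq2's test, 4 with 10 reads in all 24 libraries and 1 at 1000 RPM, and 2 to 6 without single larvae. The members added in the first 4 of these settings were ranks 8 and 67, and with no scaling factor also rank 71. In the same 4 settings, in that order, the 24 lower over all rows became 30, 37, 31 and 30.

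Of the 10 members given in full, 4 had values that turned sign, none past the threshold where turned. Rank 4 (slope 0.00, class log2 difference 0.00) had slopes of -0.0052 with DESeq2's size factors, -0.035 with no scaling factor, -0.014 with upper quartile scaling, -0.0052 with DESeq2's test, -0.0064 without a filter, -0.023 with 10 reads in all 24 libraries, -0.025 with the set as a covariate, -0.0017 in the 15 libraries, -0.16 in the 9, and -0.038 to 0.017 without single larvae. Its class differences were -0.019, -0.079, -0.025, -0.019, -0.027 and -0.062 under the first 6 of these, -0.0049 with the set, -0.018 with the end classes only, and -0.091 to 0.057 without single larvae. With log10 reads as a covariate, rank 1 had a slope of 0.014 and class differences of 0.048, and 0.012 with the set added; rank 7 had class differences of 0.013 and 0.043 and, with the set added, a slope of 0.0088. Rank 6 had a slope of 0.046 in the 9 libraries.

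Ranks 31 and 71 also missed the threshold, with slopes close to -0.19 and -0.16 as reported, with limma-voom (slopes -0.18 and -0.15, adjusted p = 0.0511 and 0.0534) and without a filter (-0.20 and -0.17, 0.0547 and 0.0944). Rank 71 missed it too with upper quartile scaling (-0.18, 0.0634) and with a single row per count profile (-0.16, 0.0514). Over all rows, the 39 rising and 30 falling were 24 and 41 without scaling, 23 and 31 with 10 reads in all 24 libraries, 22 and 26 in the 15 libraries and 7 and 12 in the 9; fewer rows or libraries entered the last 3. Leaving out the larva of 4783.45 µm gave 22 rising, and leaving out that of 5284.36 µm gave 19 falling. Without scaling the median slope of all rows moved by -0.04, and the class counts went from 33 higher and 24 lower to 22 and 37. No paired analysis was possible because all larvae form a single labelled group. The totals limit precision to 4.67% at the lowest member count.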
